A study of Mus musculus with 16 samples.

Results

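The 6 genes described here encode subunits of the NMDA receptor and were followed through single nuclei of the mouse medial prefrontal cortex (mPFC). They are Grin1, Grin2a, Grin2b, Grin2c, Grin2d and Grin3a, chosen by name from the 19999 genes of the count table. No measured value set the choice, but it was made with earlier results of these data known. Nuclei came from 16 male mice of 22 weeks on a B6;129 background, with 4 mice in each of 4 groups. Each genotype, WT and 3xTg-AD, had a control group and a group exposed to alcohol vapor. Per the study's methods, alcohol-exposed mice received ethanol with pyrazole, an inhibitor of alcohol dehydrogenase, before intermittent vapor over repeated weekly cycles, and the controls of both genotypes received pyrazole in saline and air. The paper reports that mice of all groups were tested in the Morris water maze after vapor ended, and tissue was taken days later. The paper places the maze test in protracted withdrawal. Alcohol contrasts thus describe mice at a later point of this protracted withdrawal, days after exposure, that had been through a memory test. The 3xTg-AD line carries mutant human APP and tau transgenes driven in neurons by a Thy1 cassette, together with a mutant presenilin 1 knock-in, and the counted genes are those of the mouse, with no row for the human transcripts. Genotype here is the whole 3xTg-AD line against B6;129 WT mice, so the transgenes and any other genetic difference between the lines cannot be told apart.

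NMDA receptors are glutamate-gated ion channels that open when glutamate and a co-agonist, glycine or D-serine, are bound and the membrane is depolarized. Grin1 encodes the obligatory subunit with the co-agonist site, Grin2a to Grin2d encode the subunits that bind glutamate and set the kinetics of the channel, and Grin3a encodes a glycine-binding subunit that lowers calcium permeability. In the cortex, Grin2b is the principal Grin2 gene early in life, and Grin2a is taken up with maturation. The receptor is inhibited by ethanol and is a focus of work on synapse loss in Alzheimer's disease.

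The table held 216742276 unique molecular identifiers (UMIs) over 114512 nuclei, with 4955 to 9096 nuclei and 9622031 to 17544364 UMIs per mouse, and 1694 nucleus barcodes (1.502% of all barcodes) appeared in more than 1 library. Nuclei were assigned by marker genes to 19 cell classes, of which 17 had enough nuclei per mouse to be tested. Class names here stand for clusters with the markers of that class, and 40.6% of the nuclei stayed unnamed. The ribosomal RNA-like transcript Gm42418 was high in mice 26 and 27 of the WT controls and mouse 12 of the 3xTg-AD controls, and the called or smallest-p group differences of subunit genes are given with and without these 3 mice, whereas the class levels are over all 16. In WT control 27, 1110 of the 4962 nuclei had the markers of the Meis2 class, GABAergic cells related to those of the olfactory bulb, which held Grin3a at 13.7 CPM and Grin2b at 1286 CPM. They count in the sums over all nuclei and are left out of the families. Neuronal transcripts were also counted in nuclei of other cells. In the non-neuronal nuclei, Slc17a7, which encodes the vesicular glutamate transporter of cortical excitatory neurons, stood at 50.1% of its level in glutamatergic nuclei and Snap25, a neuronal exocytosis gene, at 86.1%.

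The 6 subunit genes differed widely in depth. Over all nuclei, Grin2b had 209768 UMIs, Grin2a 109739, Grin1 56075, Grin3a 11830, Grin2c 3960 and Grin2d 1547. These totals are not levels to be compared between genes, since UMIs of 3′ ends are not counted per length of transcript, and whether intronic reads were counted is not given in the sources used here. All 6 genes lie on the minus strand of GRCm38 (GENCODE vM21 annotation). Grin1 (ENSMUSG00000026959) spans chr2:25291181-25319187, and its antisense gene Grin1os had 925 UMIs. Grin2a (ENSMUSG00000059003) spans chr16:9567898-9995560, and Grin2b (ENSMUSG00000030209) spans chr6:135713233-136173511. Grin2c (ENSMUSG00000020734) spans chr11:115249169-115267243, and Grin2d (ENSMUSG00000002771) spans chr7:45831883-45878378. Grin3a (ENSMUSG00000039579) spans chr4:49661611-49845744. The protein-coding gene Kdelr1 overlaps Grin2d on the opposite strand with 6931 UMIs, and Ppp3r2 lies inside Grin3a on the same strand with 366 UMIs. The use of strand in the authors' counting is not given in the sources used here, so reads shared by overlapping genes cannot be told apart.

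**Figure D1:**
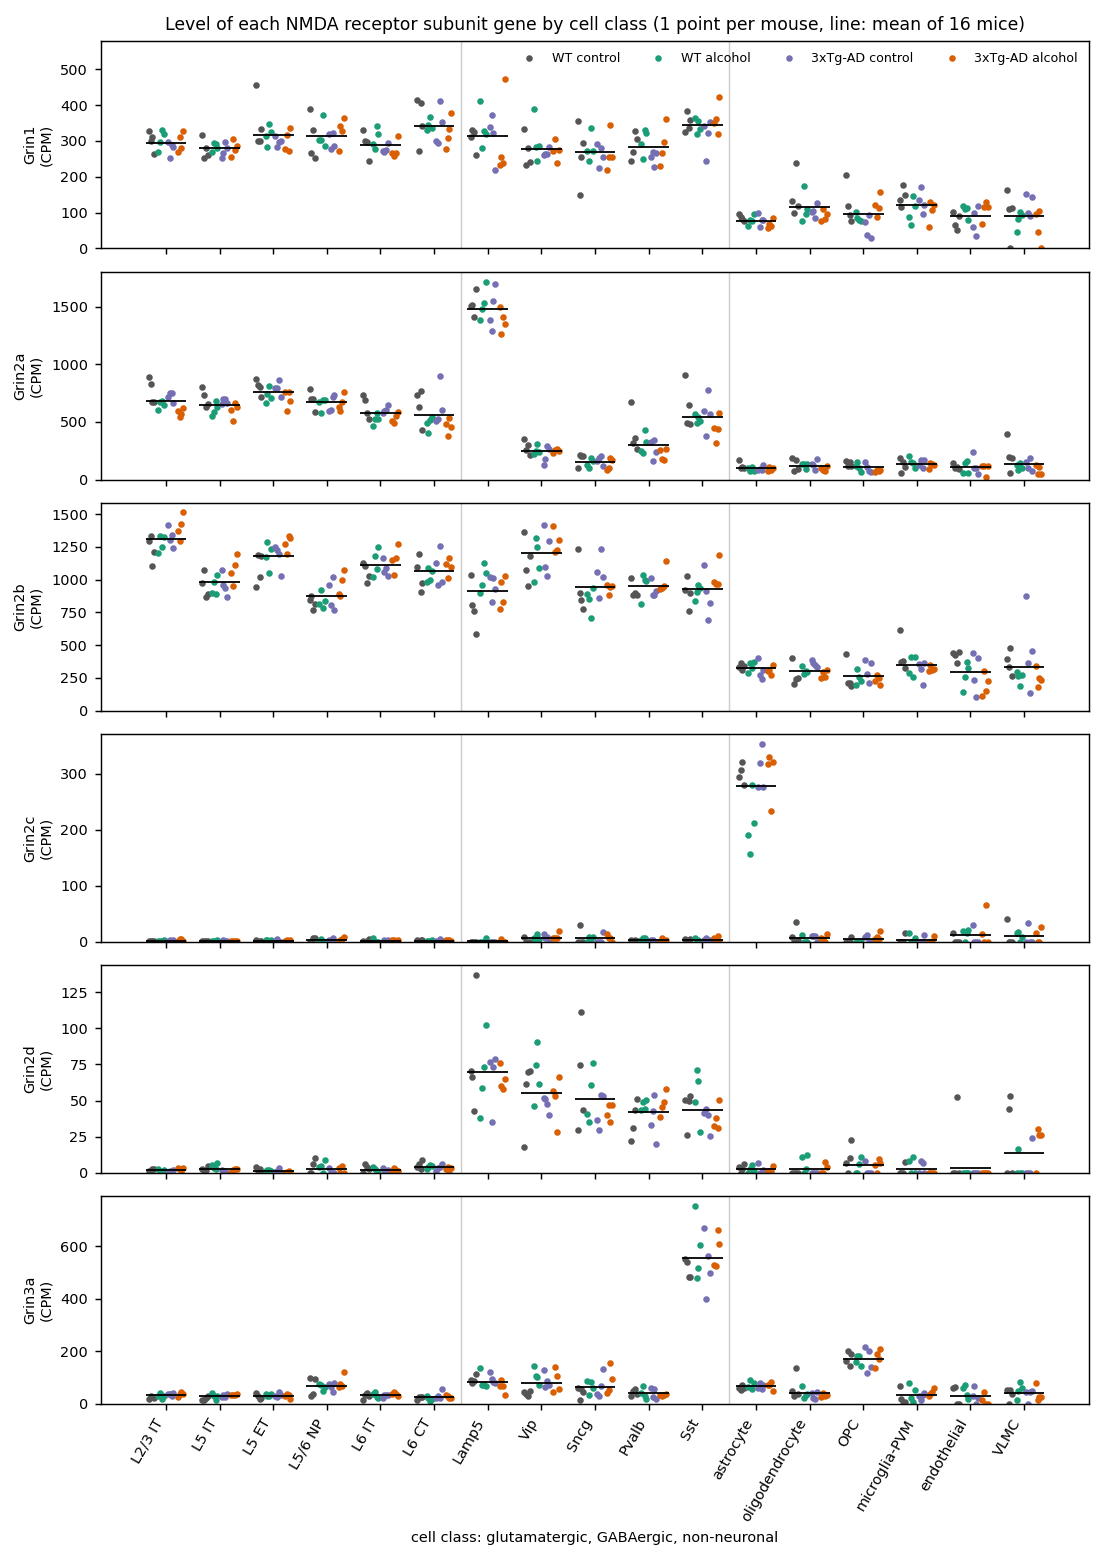
TMM-scaled CPM (counts of a gene per fixed number of UMIs of that mouse and class) of each subunit gene by cell class, with 1 point per mouse (16 mice) colored by group and a line at the mean; the axis of each panel is its own. Grin2a stands apart in Lamp5 nuclei (mean 1478 CPM), Grin3a in Sst nuclei (554 CPM) and Grin2c in astrocytes (279 CPM).

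Grin1, the obligatory subunit, was even across the neuronal classes tested. Its mean lay between 269 and 343 CPM in the 11 neuronal classes (TMM-scaled CPM within a class, mean over 16 mice), and between 77.7 and 121 CPM in the 6 non-neuronal classes. The lowest of these 11 neuronal classes, Sncg (269 ± 50.9 CPM, SD, n = 16), was above the highest non-neuronal class, microglia-PVM (121 ± 33.2 CPM), in 16 of 16 mice. In the order of neuronal Grin1 levels each class exceeded the next in 8 to 13 of 16 mice. Sst (343 ± 37.9 CPM) exceeded L6 CT (342 ± 45.3 CPM) in 8 of 16 mice, L6 CT exceeded L5 ET (316 ± 43.4 CPM) in 12, L5 ET exceeded Lamp5 (314 ± 67.0 CPM) in 9 and L5/6 NP exceeded L2/3 IT in 13. The order of L5/6 NP and L2/3 IT was not kept on the scaling over all classes used below.

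Grin2a, the subunit that gives the receptor its fastest kinetics, was the most uneven of the 3 abundant genes. It reached 1478 ± 135 CPM (SD, n = 16; lowest mouse 1259, highest 1719) in Lamp5 interneurons, the neurogliaform-like cells of the upper layers, and was above every other GABAergic class in 16 of 16 mice. Among excitatory classes, L5 ET, the neurons that project below the telencephalon, led with 757 ± 75.5 CPM and exceeded L2/3 IT (680 ± 93.1 CPM) in 14 of 16 mice. L2/3 IT, L5/6 NP (670 ± 65.1 CPM) and L5 IT (649 ± 70.1 CPM) did not separate from mouse to mouse, the first exceeding the second in 7 of 16 mice and the second exceeding the third in 10. Sst interneurons held 546 ± 144 CPM, above Pvalb (299 ± 124 CPM) in 16 of 16 mice, and Vip and Sncg held 250 ± 52.5 CPM and 156 ± 44.5 CPM. The 5 interneuron classes thus covered a wider range of Grin2a levels than the 6 excitatory classes, from 156 to 1478 CPM against 556 to 757 CPM.

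Grin2b, which encodes the slower subunit of young synapses, was highest in L2/3 IT at 1310 ± 98.1 CPM, above every other glutamatergic class in 16 of 16 mice. Vip interneurons held 1200 ± 149 CPM and were above every other GABAergic class in 15 of 16 mice. Of the 11 neuronal classes tested, L5/6 NP had the lowest mean, 878 ± 93.2 CPM. It lay below every other glutamatergic class in 15 of 16 mice. The 11 neuronal classes thus lay between 878 and 1310 CPM for Grin2b, a narrower range than for Grin2a.

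Grin2c, a subunit known from cerebellar granule cells and from astrocytes, was here a gene of astrocytes. Its level was 279 ± 54.6 CPM (SD, n = 16; lowest mouse 157, highest 353) in astrocytes and at most 11.2 CPM in any other class, and 2715 of its 3960 UMIs came from nuclei named astrocytes and 891 from unnamed nuclei. Its level in astrocytes exceeded that in the next class in 16 of 16 mice. No other class held over 81 UMIs of Grin2c, so the order among them was not detectable at this depth.

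Grin2d, known from interneurons, was a gene of the 5 GABAergic classes tested. It had 69.5 ± 24.6 CPM in Lamp5, 55.5 ± 17.8 in Vip, 50.9 ± 21.5 in Sncg, 43.4 ± 13.1 in Sst and 42.3 ± 10.8 in Pvalb, against 1.15 to 3.88 CPM in the glutamatergic classes. The GABAergic Meis2 class, not tested, held 5.22 CPM from 8 UMIs. Each of the 5 interneuron classes exceeded its neighbor in only 8 to 10 of 16 mice, apart from Pvalb, which exceeded VLMC in 13 of 16 mice. In glutamatergic nuclei Grin2d stood at 4.62% of its GABAergic level, below Gad1 at 8.19% and Gad2 at 7.26%, the genes of GABA synthesis, and the part of background RNA in it was not tested.

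Grin3a, the glycine-binding subunit, marked Sst interneurons. It reached 554 ± 87.4 CPM (SD, n = 16; lowest mouse 401, highest 753) in Sst nuclei, above every other GABAergic class in 16 of 16 mice. Of the 17 classes tested, oligodendrocyte precursors (OPC) came next with 171 ± 28.8 CPM, above every other non-neuronal class in 16 of 16 mice. This was 81.4% of the GABAergic level, whereas Sst itself stood at 46.0% and Gad1 at 34.2% of theirs in OPC. Lamp5 (85.1 CPM), Vip (81.0), L5/6 NP (69.7), astrocytes (67.7) and Sncg (65.4) did not separate, each exceeding the next in 7 to 10 of 16 mice. In glutamatergic nuclei Grin3a stood at 14.8% of its GABAergic level, below Sst at 18.2% and above Gad1 at 8.19% and Gad2 at 7.26%. In astrocytes it stood at 32.2%, again between Sst at 39.9% and Gad1 and Gad2 at 22.5% and 18.1%, and in L5/6 NP at 33.1%, above Sst at 29.1%, Gad1 at 11.2% and Gad2 at 10.05%. The part of background RNA in these levels was not tested.

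The differences between classes were tested in 1 fit over the summed counts of all classes with the mouse as a block (edgeR quasi-likelihood test, Benjamini-Hochberg over 9368 genes, with a call at an adjusted p up to 0.05 and an absolute log2 fold change of at least 1). Its log2 fold changes compare means of classes on a scaling over all class sums and are not ratios of the levels above. The order of classes can change with the scaling. Against the other glutamatergic classes, L5/6 NP had -0.20 for Grin1 (SE 0.05, adjusted p = 1.9e-04) and -0.16 for Grin2a (SE 0.05, adjusted p = 0.0072), and L2/3 IT had 0.04 for Grin1. By level within the class, Grin1 in L5/6 NP exceeded L2/3 IT in 13 of 16 mice. Each class of a mouse entered this fit as a separate value, and differences between mice that vary by family were not fitted. For averages over classes, SE and p can therefore be smaller than the 16 mice alone would give. Between glutamatergic and GABAergic classes 8.96% of genes were called. Grin2d and Grin3a were among them, both lower in glutamatergic classes, with log2 fold changes of -4.25 (SE 0.11, adjusted p = 2.29e-149) and -1.39 (SE 0.08, adjusted p = 2.03e-47). The log2 fold change was 0.86 for Grin2a (SE 0.04, adjusted p = 5.27e-65), 0.29 for Grin2b and 0.19 for Grin1, all below the size required.

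Between neuronal and non-neuronal classes, where 24.4% of genes were called, 5 of 6 subunit genes were called. On average over the neuronal classes, Grin2a (log2 fold change 2.32, SE 0.05), Grin2b (1.93, SE 0.03), Grin1 (1.79, SE 0.04) and Grin2d (1.56, SE 0.22) were higher, and Grin2c (-2.05, SE 0.24) was lower. For Grin2d this did not hold in glutamatergic nuclei, which had 2.19 CPM against 3.21 CPM in non-neuronal and 47.3 CPM in GABAergic nuclei. Grin2c had 279 CPM in astrocytes and at most 11.2 CPM in every other class tested. In non-neuronal nuclei Grin1 stood at 30.1% of its glutamatergic level, Grin2a at 16.6% and Grin2b at 27.4%, under the 50.1% of Slc17a7. Against the GABAergic level Grin1 stood at 30.003% and Grin2b at 32.3%, above Gad1 at 25.1% and Gad2 at 20.3%, and Grin2a at 22.2%, between them. The part of neuronal background RNA in these levels was not tested.

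Within the families the calls followed the levels. Lamp5 against the other GABAergic classes (5.79% of genes called) gave Grin2a 2.30 on the log2 scale (SE 0.06, adjusted p = 4.16e-97). Sncg (4.87% called) gave it -1.67 (SE 0.11, adjusted p = 4.08e-35). Sst (5.20% called) gave Grin3a 3.15 (SE 0.07, adjusted p = 4.80e-114), an 8.88-fold difference, and Pvalb (6.61% called) gave it -1.68 (SE 0.13, adjusted p = 1.97e-29). L5/6 NP (8.02% called) gave Grin3a 1.0003 (SE 0.13, adjusted p = 4.70e-12), a difference at the edge of the size required that fell to 0.91 to 0.99, under that size, in each of the 6 other settings tried. Among non-neuronal classes, astrocytes (14.1% called) gave Grin2c 5.58 (SE 0.11, adjusted p = 1.85e-198), a 47.8-fold difference, and OPC (15.0% called) gave Grin3a 2.03 (SE 0.14, adjusted p = 6.08e-33). Grin1 and Grin2b were called in no comparison of a class with the rest of its family, and no subunit gene was called in L2/3 IT (5.04% called), L5 IT (2.97%), L6 IT (3.07%), L6 CT (4.37%) or Vip (4.71%). Grin2c was also called in OPC (-1.69), oligodendrocytes (14.2% called) and microglia-PVM (15.4% called), Grin2d in L5 ET (5.50% called) and VLMC (8.95% called), and Grin3a in endothelial nuclei (21.1% called), all on at most 21 UMIs of the gene in that class.

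The genes whose class means ran most like those of each subunit are given by Pearson's r over the 17 classes, which share libraries and depth. Grin2c ran with Aldh1l1 (r = 0.988), Chrdl1 (0.978) and Cbs (0.976), and Grin2d with Gm14204 (0.987), Dlx1 (0.979) and Dlx6 (0.973). Grin1 ran with Myo9b (0.978), Gpr61 (0.977) and Celsr3 (0.976), and Grin2b with Trank1 (0.982), Celsr3 (0.973) and Zfp955a (0.972). Grin2a had Cdkl1 (0.944), Sbspon (0.932) and Ylpm1 (0.929), and Grin3a had the weakest likeness, to Elfn1 (0.776), Txndc15 (0.768) and Ugdh (0.765). Aldh1l1, Dlx1 and Elfn1 were among the markers that named the astrocyte, GABAergic and Sst clusters, so their class means are partly set by the naming.

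The balance of Grin2a and Grin2b was taken as the log2 ratio of their counts within a mouse and class, in which the scaling of libraries drops out. It describes the counts as captured, not the ratio of transcripts or proteins. Of the 11 neuronal classes tested, Lamp5 had the highest ratio and the 1 mean above 0, at 0.71 ± 0.28 (SD, n = 16; lowest mouse 0.36). L5/6 NP (-0.39 ± 0.20), L5 IT (-0.60 ± 0.20) and L5 ET (-0.64 ± 0.24) followed, then Sst (-0.80 ± 0.47), L2/3 IT (-0.95 ± 0.23), L6 IT (-0.96 ± 0.20) and L6 CT (-0.97 ± 0.34). Pvalb (-1.76 ± 0.51), Vip (-2.29 ± 0.41) and Sncg (-2.64 ± 0.54) had the lowest ratios.

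By group, 3xTg-AD mice exposed to alcohol had the lowest mean ratio in glutamatergic nuclei and in 8 of the 11 neuronal classes. In L6 IT and Lamp5 their mean was 0.0085 and 0.013 above that of alcohol-exposed WT mice and in Vip 0.18 above that of 3xTg-AD controls, with overlap in all 3. In glutamatergic nuclei the 4 alcohol-exposed 3xTg-AD mice had -1.12, -1.10, -1.04 and -1.01, the 4 WT controls -0.82, -0.64, -0.56 and -0.43, the 4 alcohol-exposed WT mice -0.94 to -0.70 and the 4 3xTg-AD controls -0.88 to -0.64. The alcohol-exposed 3xTg-AD mice lay below all 12 others, without overlap with any group. The same held in L2/3 IT, at -1.27 ± 0.05 (SD, n = 4) against -0.69 ± 0.13 in WT controls, -0.97 ± 0.07 in alcohol-exposed WT mice and -0.88 ± 0.09 in 3xTg-AD controls. Alcohol-exposed 3xTg-AD mice did not overlap with WT controls in 6 of the 11 neuronal classes, with 3xTg-AD controls in 4 and with alcohol-exposed WT mice in 2. The classes come from the same mice, and no such count was made for other pairs of genes, so whether these counts are unusual is not known. Without the 3 mice high in Gm42418 the glutamatergic ratio was -0.69 ± 0.18 in the remaining 2 WT controls and -0.66 ± 0.02 in the remaining 3 3xTg-AD controls, and that in L2/3 IT -0.78 ± 0.09 and -0.84 ± 0.06. No test was run on the ratio.

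**Figure D2:**
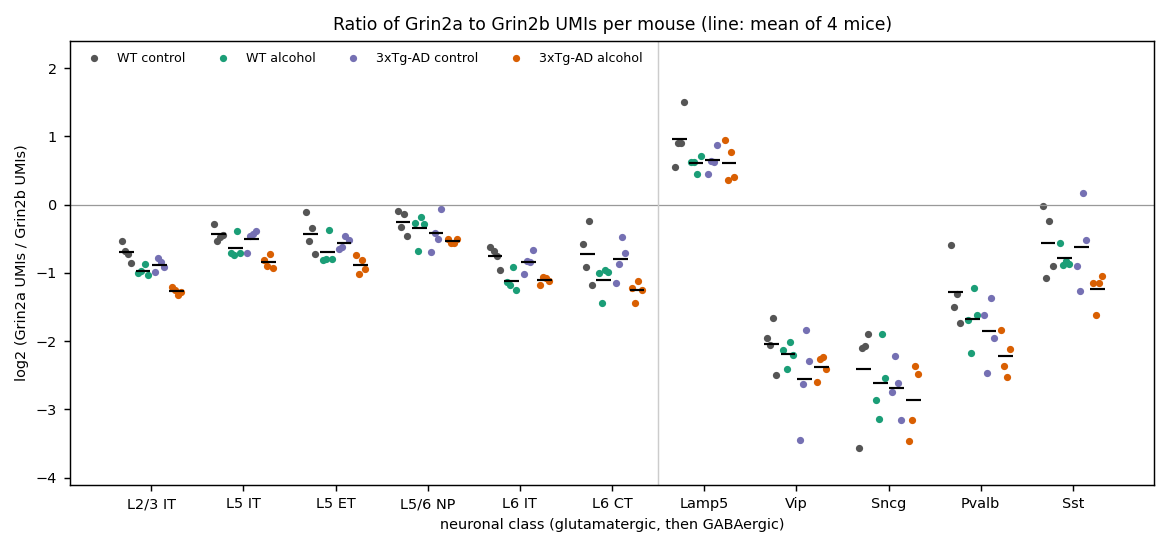
log2 ratio of Grin2a to Grin2b counts per mouse in the neuronal classes, by group, with 1 point per mouse and a line at the mean of 4 mice. In L2/3 IT the alcohol-exposed 3xTg-AD mice sit between -1.32 and -1.21, below the 12 other mice, and in Lamp5 the groups overlap.

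Group differences were tested on counts summed per mouse for all nuclei, 3 families of classes and 17 classes (edgeR, 1 mean per group, with a call at an adjusted p up to 0.05 over all genes of a fit). Grin2b passed the filter on low counts in 21 of these 21 fits, Grin1 and Grin2a in 19, Grin3a in 16, Grin2d in 5 and Grin2c in 4, which makes 84 tests of subunit genes per contrast. The fits share mice and, for the families, nuclei, and all contrasts with WT controls share those 4 mice. In sums over all nuclei or a family, fewer cells of a type and a lower level within it cannot be told apart. Overlap of groups is described below mostly for fits named for their small p or after their values were seen. How many of all genes lack overlap in the same comparisons was not counted, so whether a lack of overlap is unusual is not known.

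The question of what genotype and alcohol do together was addressed by alcohol-exposed 3xTg-AD mice against WT controls. Of the 84 tests, 1 was called (1.19%), against 1.81% of all gene tests, and 20 (23.8%) had an unadjusted p under 0.05, against 14.3% of all. Grin2a kept 1 sign throughout, with a log2 fold change below 0 in 19 of 19 fits. Its median was -0.33, with 10 unadjusted p-values under 0.05. Of all gene tests taken singly, 50.1% were below 0. How many genes keep 1 sign over all their fits, which share mice, was not counted. Grin3a ran the other way, above 0 in 14 of 16 fits with a median of 0.23. Grin2b was above 0 in 14 of 21 with a median of 0.11, and Grin1 below 0 in 12 of 19 with a median of -0.08. Without the 3 mice high in Gm42418, Grin2a was below 0 in 18 of 20 fits with a median of -0.20 and 2 unadjusted p-values under 0.05, and Grin3a above 0 in 15 of 17 with a median of 0.18. Grin2b was then above 0 in 16 of 21 with a median of 0.21 and 4 unadjusted p-values under 0.05, and Grin1 below 0 in 12 of 19 with a median of -0.05. The rarer Grin2d was below 0 in 8 of 8 fits with a median of -0.47, from 4 of 5 and -0.22 with all mice, and Grin2c above 0 in 4 of 5 with a median of 0.42, from 4 of 4 and 0.22.

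The values of Grin2a and Grin3a in this contrast were singled out after they were seen. For Grin2a in L2/3 IT, the WT controls had 894, 833, 672 and 672 CPM and the alcohol-exposed 3xTg-AD mice 624, 593, 570 and 544 CPM. The groups did not overlap, the alcohol-exposed WT mice (599 to 684 CPM) overlapped with both, and the 3xTg-AD controls (662 to 752 CPM) with the WT controls alone. The log2 fold change was -0.40 (SE 0.11), a level 1.32-fold higher in WT controls, with an adjusted p = 0.051 that just missed the threshold. It was past the threshold in DESeq2 (log2 fold change -0.40, adjusted p = 0.0061) and in edgeR without WT control 28 (adjusted p = 0.037), WT control 36 (adjusted p = 0.038) or 3xTg-AD control 12 (adjusted p = 0.049). The 2 highest WT controls, 26 and 27, are those high in Gm42418. Without the 3 high mice the log2 fold change was -0.21 (SE 0.12, adjusted p = 0.40), and with Gm42418 as a covariate -0.22 (SE 0.13, adjusted p = 0.38). The part of Gm42418 in this difference was not tested.

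Over all nuclei Grin2a had 450 CPM on average in alcohol-exposed 3xTg-AD mice and 567 CPM in WT controls (log2 fold change -0.33, SE 0.10, adjusted p = 0.079, and adjusted p = 0.011 in DESeq2), and without WT control 36 it was past the threshold (-0.41, adjusted p = 0.032). The largest difference of Grin2a among classes was in Pvalb (-0.89, SE 0.32, adjusted p = 0.27), where WT control 26 held 671 CPM and the other WT controls 264 to 363 CPM. Without the 3 mice high in Gm42418 the log2 fold change was -0.20 over all nuclei (adjusted p = 0.33) and -0.51 in Pvalb (adjusted p = 0.50). Leaving out WT control 27 alone gave -0.33 over all nuclei (adjusted p = 0.13).

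**Figure D3:**
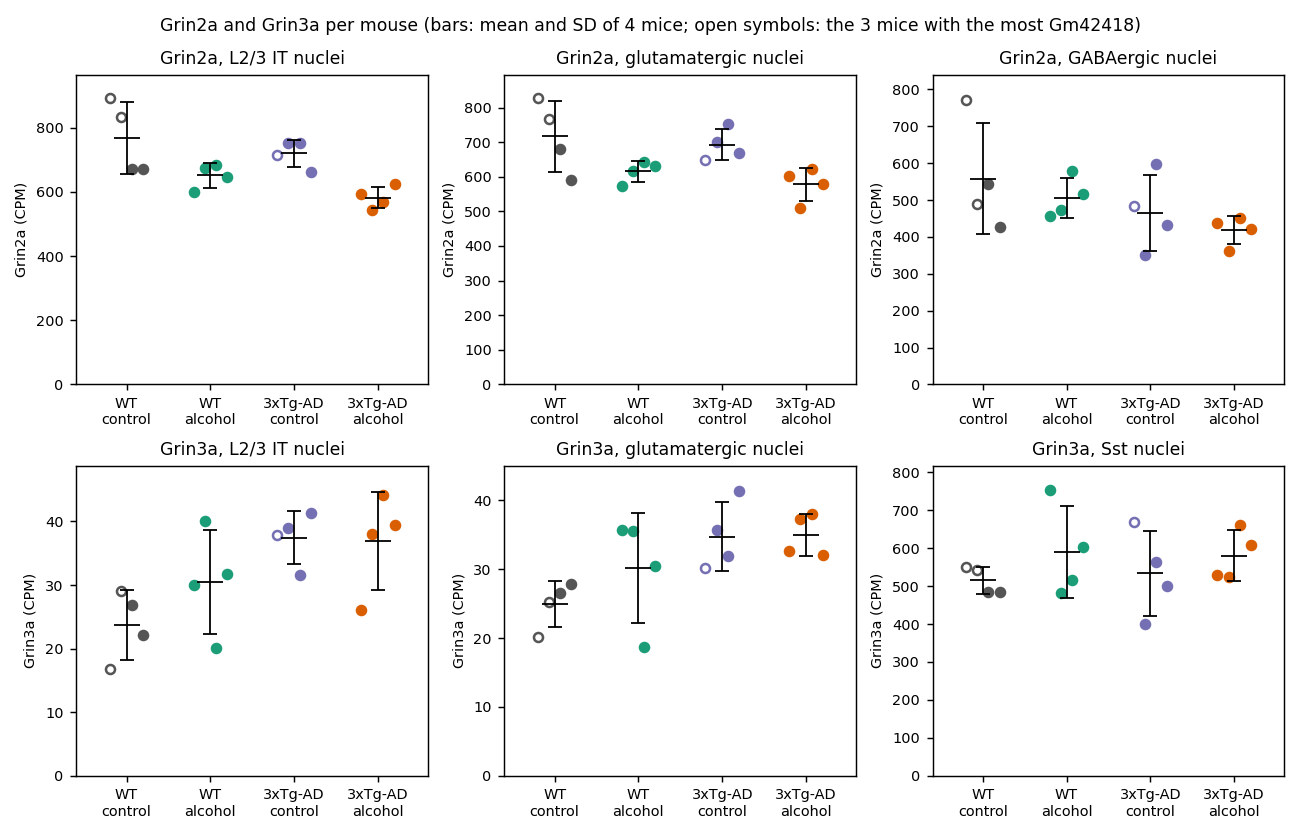
TMM-scaled CPM by group of Grin2a in L2/3 IT, glutamatergic and GABAergic nuclei (upper panels) and of Grin3a in L2/3 IT, glutamatergic and Sst nuclei (lower panels), with 1 point per mouse, bars for the mean and SD of 4 mice, and open symbols for the 3 mice high in Gm42418. Grin2a in L2/3 IT reaches 894 CPM in a WT control that is also high in Gm42418 and stays at or below 624 CPM in alcohol-exposed 3xTg-AD mice.

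The call in this contrast was Grin2b in endothelial nuclei. WT controls had 448, 440, 421 and 366 CPM and alcohol-exposed 3xTg-AD mice 304, 229, 153 and 108 CPM, from 7 to 30 UMIs per mouse. The log2 fold change was -1.20 (SE 0.36, adjusted p = 0.047), in a fit that called 2.58% of its genes. It was lost in each of the 8 other settings tried, with adjusted p from 0.053 (nuclei under stricter limits) to 0.76 (no filter on low counts), and on leaving out any of 14 of the 16 mice. With the 3 mice high in Gm42418 left out, the log2 fold change was -1.15 (adjusted p = 0.40). Endothelial nuclei numbered 16 to 37 per mouse. Grin2b stood there at 25.95% of its glutamatergic level, below Slc17a7 at 47.3%, and at 30.6% of its GABAergic level, above Gad1 at 17.6% and Gad2 at 18.8%, and the part of background RNA was not tested. Slc17a7, a gene of excitatory neurons, had 349 ± 90.6 CPM in the endothelial nuclei of WT controls and 376 ± 165 CPM in those of alcohol-exposed 3xTg-AD mice.

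For Grin3a in the same contrast, all nuclei had 40.4, 42.5, 48.5 and 49.4 CPM in the WT controls and 53.2, 56.1, 59.4 and 61.8 CPM in the alcohol-exposed 3xTg-AD mice, without overlap. The log2 fold change was 0.35 (SE 0.10, adjusted p = 0.065, and adjusted p = 0.026 in DESeq2), and without the 3 mice high in Gm42418 it was 0.24 (adjusted p = 0.29). The second lowest WT control, with 42.5 CPM, is mouse 27 with its Meis2 nuclei, and without it the log2 fold change was 0.32 (adjusted p = 0.13). In L2/3 IT it was 0.64 (SE 0.20, adjusted p = 0.080), and past the threshold without alcohol-exposed 3xTg-AD mouse 4 (0.79, adjusted p = 0.041), whereas without the 3 high mice it was 0.56 (adjusted p = 0.21). In Sst nuclei, where the gene is highest, WT controls had 484 to 550 CPM and alcohol-exposed 3xTg-AD mice 525 to 661 CPM, with overlap.

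Genotype without alcohol was addressed by 3xTg-AD controls against WT controls, where 0.254% of all gene tests were called and none of the 84 of subunit genes. By unadjusted p under 0.05 there were 9 (10.7%), against 6.85% of all gene tests. The 5 with the smallest p were Grin1 in OPC, Grin3a in L2/3 IT, all nuclei and glutamatergic nuclei, and Grin2d in glutamatergic nuclei. Grin3a in L2/3 IT had 16.7, 22.2, 26.9 and 29.1 CPM in the WT controls, and 31.6, 37.9, 38.9 and 41.4 CPM in the 3xTg-AD controls, from 42 to 90 UMIs per mouse. The groups did not overlap, and the fitted log2 difference was 0.66 (SE 0.20, adjusted p = 0.21). Sst in the same nuclei, a measure of interneuron RNA, had a mean of 106 ± 37.2 CPM in the WT controls and of 121 ± 29.7 CPM in the 3xTg-AD controls, with overlap, and its part in the difference was not tested. All nuclei gave Grin3a 0.32 (SE 0.10, adjusted p = 0.30) and glutamatergic nuclei 0.48 (SE 0.17, adjusted p = 0.35), again without overlap of the groups. Leaving out WT control 27 gave 0.29 over all nuclei (adjusted p = 0.49). Grin1 in OPC rested on 4 to 30 UMIs per mouse, with a fitted difference of -1.14 on the log2 scale (SE 0.34, adjusted p = 0.29). Grin2d in glutamatergic nuclei had -0.93 (SE 0.33, adjusted p = 0.36). Without the 3 mice high in Gm42418, Grin3a had 0.58 in L2/3 IT (adjusted p = 0.68), 0.19 over all nuclei (adjusted p = 0.90) and 0.41 in glutamatergic nuclei (adjusted p = 0.76), Grin1 in OPC -0.68 (adjusted p = 0.99) and Grin2d in glutamatergic nuclei -1.34 (adjusted p = 0.28). Grin1 was below 0 in 18 of 19 fits, which share mice, with a median of -0.11. Of all gene tests taken singly, 49.96% were below 0 in the same contrast. Grin2a was below 0 in 17 of 19 fits with a median of -0.06, and in L2/3 IT its log2 fold change went from -0.09 to 0.10 without the 3 mice high in Gm42418. Without them Grin1 was below 0 in 14 of 19 fits (median -0.12) and Grin2a in 9 of 20 (median 0.05).

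Alcohol in WT mice was addressed by alcohol-exposed WT mice against WT controls, where 0.0388% of all gene tests were called and none of the 84. By unadjusted p there were 11 (13.1%), against 9.91% of all. Grin2c in astrocytes had 320.3, 306, 294 and 279.5 CPM in the WT controls and 279, 211, 190 and 157 CPM in alcohol-exposed WT mice. Its log2 fold change was -0.51 (SE 0.16, adjusted p = 0.27), with -0.53 (SE 0.15, adjusted p = 0.23) over non-neuronal nuclei and -0.42 (SE 0.15, adjusted p = 0.28) over all nuclei. The groups did not overlap in any of the 3, which share the astrocyte nuclei, and how many of all genes do not overlap was not counted. In astrocytes the gap was narrow, between 279.5 CPM in the lowest WT control and 279.0 CPM in the highest alcohol-exposed WT mouse. Grin3a in Vip nuclei had 31.05 to 50.1 CPM in WT controls, from 3 to 5 UMIs per mouse, and 72.9 to 145 CPM in alcohol-exposed WT mice, from 13 to 22 UMIs (log2 fold change 1.38, SE 0.39, adjusted p = 0.099). Over all nuclei Grin3a had 0.34 (SE 0.10, adjusted p = 0.25, and 0.31, adjusted p = 0.48, without WT control 27), and Sst there had a mean of 215 ± 65.5 CPM in the WT controls and of 321 ± 50.04 CPM in the alcohol-exposed WT mice. Grin2a was below 0 in 17 of 19 fits with a median of -0.24, beside 50.6% of all gene tests taken singly. Without the 3 mice high in Gm42418 it was below 0 in 15 of 20 with a median of -0.06. Without these mice Grin2c had -0.51 in astrocytes (adjusted p = 0.53), -0.69 over non-neuronal nuclei (adjusted p = 0.21) and -0.40 over all nuclei (adjusted p = 0.36), and Grin3a 1.39 in Vip (adjusted p = 0.40) and 0.22 over all nuclei (adjusted p = 0.49).

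Alcohol in 3xTg-AD mice was addressed by alcohol-exposed 3xTg-AD mice against 3xTg-AD controls, where 0.241% of all gene tests were called (397 tests, and 49 to 1239 on leaving out each mouse in turn) and none of the 84. By unadjusted p there were 7 (8.33%), against 9.33% of all. Grin2a held 5 of the 7. It was below 0 in 18 of 19 fits with a median of -0.20, beside 49.6% of all gene tests taken singly. In L2/3 IT the 3xTg-AD controls had 662, 715, 752 and 752 CPM, above the 544 to 624 CPM of alcohol-exposed 3xTg-AD mice (log2 fold change -0.31, SE 0.11, adjusted p = 0.24). All nuclei gave -0.30 (SE 0.10, adjusted p = 0.22), also without overlap, and L6 CT -0.45 (SE 0.17, adjusted p = 0.42), with overlap. The other 2 were Grin1 in OPC (1.02, SE 0.32, adjusted p = 0.27, and 1.42, adjusted p = 0.047, with Gm42418 as a covariate) and Grin2b in VLMC (-1.05, SE 0.31, adjusted p = 0.22), both in non-neuronal nuclei with 3 to 40 UMIs per mouse. Without the 3 mice high in Gm42418, of which 1 is a 3xTg-AD control, Grin2a was below 0 in 19 of 20 fits with a median of -0.20. It had -0.31 in L2/3 IT (adjusted p = 0.12), -0.30 over all nuclei (adjusted p = 0.12) and -0.53 in L6 CT (adjusted p = 0.19), while Grin1 in OPC had 1.16 (adjusted p = 0.16) and Grin2b in VLMC -0.51 (adjusted p = 0.81).

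**Figure D4:**
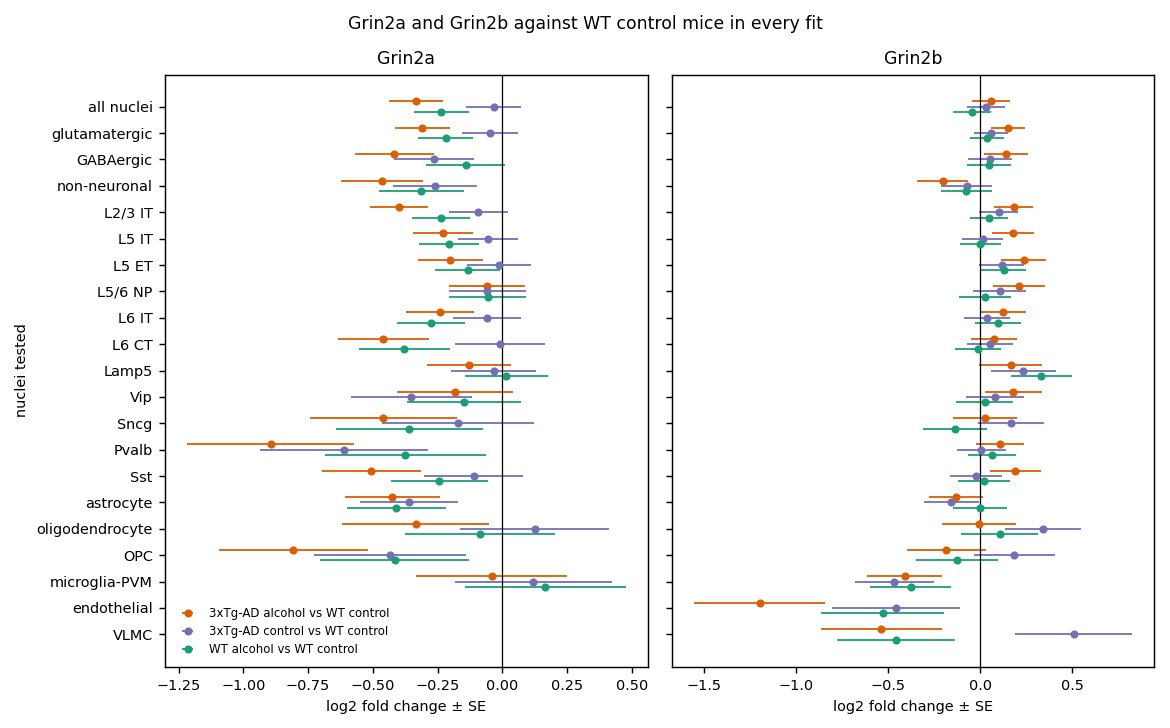
log2 fold changes of Grin2a and Grin2b with their SE in each fit for the 3 other groups against WT controls (edgeR quasi-likelihood test). For alcohol-exposed 3xTg-AD mice against WT controls all 19 values of Grin2a lie below 0, whereas those of Grin2b lie on both sides.

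Genotype under alcohol was addressed by alcohol-exposed 3xTg-AD mice against alcohol-exposed WT mice. Of the 84 tests 1 was called (1.19%), against 0.511% of all gene tests, and 4 (4.76%) had an unadjusted p under 0.05, against 9.60% of all. The call was Grin2c over all nuclei. Alcohol-exposed WT mice had 9.39, 13.2, 13.6 and 14.7 CPM and alcohol-exposed 3xTg-AD mice 20.9, 21.2, 23.3 and 24.9 CPM, without overlap. The log2 fold change was 0.82 (SE 0.15, adjusted p = 0.013), a level 1.76-fold higher, in a fit that called 0.942% of its genes. WT controls (15.5 to 18.2 CPM) lay between, and 3xTg-AD controls (14.4 to 23.4 CPM) overlapped with both. Without alcohol-exposed 3xTg-AD mouse 31 the log2 fold change was 0.77 and the call was lost (adjusted p = 0.056). Grin2a was below 0 in 18 of 19 fits (median -0.10) and Grin1 in 16 of 19 (median -0.06), beside 50.4% of all gene tests taken singly. Neither had an unadjusted p under 0.05. Grin2b was above 0 in 13 of 21 fits and Grin3a in 8 of 16.

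Astrocytes, the source of Grin2c, made up 7.64 ± 0.69% of the nuclei in alcohol-exposed 3xTg-AD mice and 5.48 ± 0.56% in alcohol-exposed WT mice, without overlap. The summed level of 10 of 10 astrocyte markers over all nuclei was 1876 ± 273 CPM (1645 to 2236) and 1666 ± 194 CPM (1440 to 1896), with overlap and no marker at 0. Within astrocytes, Grin2c had 190, 157, 279 and 211 CPM in alcohol-exposed WT mice and 316, 329, 234 and 320 CPM in alcohol-exposed 3xTg-AD mice, with overlap. The log2 fold change there was 0.51 (SE 0.15, adjusted p = 0.16), and past the threshold without alcohol-exposed WT mouse 17 (0.68, adjusted p = 0.027). Over non-neuronal nuclei it was 0.57 (SE 0.15, adjusted p = 0.077, and adjusted p = 0.046 in DESeq2), and past the threshold in edgeR without WT control 28 (0.59, adjusted p = 0.035). None of the 3 mice high in Gm42418 is in these groups, and with them left out of the fit Grin2c had 0.83 over all nuclei (adjusted p = 0.0037), 0.58 over non-neuronal nuclei (adjusted p = 0.027) and 0.51 in astrocytes (adjusted p = 0.10). The part of the astrocyte share in the difference over all nuclei was not tested.

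**Figure D5:**
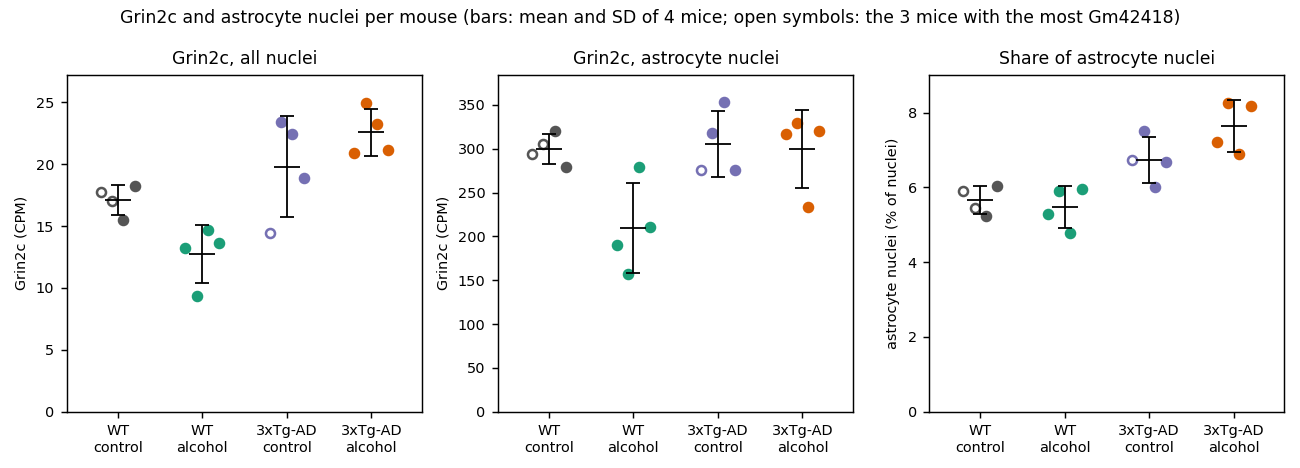
Grin2c by group over all nuclei and within astrocytes (TMM-scaled CPM) beside the percentage of nuclei named astrocytes, with 1 point per mouse, bars for the mean and SD of 4 mice, and open symbols for the 3 mice high in Gm42418. Alcohol-exposed 3xTg-AD mice (20.9 to 24.9 CPM) lie above alcohol-exposed WT mice (9.39 to 14.7 CPM) over all nuclei, and the groups overlap within astrocytes.

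The interaction of genotype and alcohol asks whether alcohol did something else in 3xTg-AD mice than in WT mice. None of the 84 tests was called, as for all genes tested (0%), and 5 (5.95%) had an unadjusted p under 0.05, against 4.06% of all. These were Grin1 in OPC (log2 difference 1.58, SE 0.44, adjusted p = 0.43), Grin2c over all nuclei (0.61, SE 0.21, adjusted p = 0.94), non-neuronal nuclei (0.48, SE 0.21, adjusted p = 0.996) and astrocytes (0.47, SE 0.22, adjusted p = 0.97), and Grin3a in Vip nuclei (-1.33, SE 0.52, adjusted p = 0.89). Grin2a had 9 differences above 0 and 10 below, with a median of -0.01 and no unadjusted p under 0.05. With the 3 mice high in Gm42418 left out, Grin1 in OPC had 1.14 (adjusted p = 0.97), Grin2c 0.48 over all nuclei (adjusted p = 0.87), 0.55 over non-neuronal nuclei (adjusted p = 0.9999) and 0.44 in astrocytes (adjusted p = 0.997), and Grin3a in Vip -1.19 (adjusted p = 0.96), while Grin2a was below 0 in 16 of 20 fits with a median of -0.13.

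Of 70 genes listed for scaffolds, kinases and phosphatases, co-agonist supply, partners, calcium effectors and related receptors, 62 entered the class comparisons. Astrocytes against the other non-neuronal classes had 8 of them higher and none lower, beside 9.17% of all genes higher and 4.89% lower, and 5 of those 8 supply co-agonists. These were Slc7a10, the glial transporter of D-serine and glycine (log2 fold change 4.89), Slc1a4, a neutral amino acid transporter (2.22), and Phgdh (1.99), Psat1 (1.43) and Psph (1.36), the enzymes of serine synthesis. OPC had 11 of the 62 higher and 0 lower, beside 921 and 482 of all 9368 genes, and 1 of the 11 supplies co-agonists. Oligodendrocytes had 6 higher and 1 lower, beside 577 and 750 of all genes, and 3 of the 6 supply co-agonists. Against GABAergic classes, 7 of 62 were higher in glutamatergic classes, among them the scaffolds Dlg1 (1.66), Homer1 (1.43) and Lrrc7 (1.04), beside 4.50% of all genes, and 2 were lower, beside 4.45%, the neuregulin receptor Erbb4 (-5.17) and Slc1a4 (-1.07). The median over the 62 was 0.19.

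In the group contrasts 68 of the 70 genes were tested, in 1064 tests per contrast. Alcohol-exposed 3xTg-AD mice against WT controls had 5 calls (0.470%, against 1.81% of all gene tests). Dapk1, a kinase that binds Grin2b protein, was higher in L6 CT (log2 fold change 0.58). Lower were the scaffold Shank2 in Vip (-1.64), the actin-binding Actn2 in L2/3 IT (-0.99) and Tiam1, an activator of Rac1, in non-neuronal nuclei (-0.87). Against alcohol-exposed WT mice there were 7 calls of 4 genes (0.658%, against 0.511% of all). Of these, 5 were of co-agonist supply, with Psph higher in GABAergic nuclei (1.38), all nuclei, glutamatergic nuclei and Pvalb, and Shmt2, which makes glycine from serine, higher in GABAergic nuclei (1.78). Csnk2a2 in OPC (-1.27) and Camk2b in non-neuronal nuclei (-0.48), both kinases, were lower. No listed gene was called in the other 4 contrasts, which had 69 (6.48%), 105 (9.87%), 61 (5.73%) and 54 (5.08%) unadjusted p-values under 0.05 (edgeR), against 6.85%, 9.91%, 9.33% and 4.06% of all gene tests, in the order given above. The median log2 fold change over the 1064 tests was within 0.05 of 0 in all 6 contrasts.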

How the data were processed

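Single-nucleus RNA-seq (10x 3′ chemistry) was made from the mPFC of 16 mice, 1 library per mouse. The deposited values are raw UMI counts per gene and nucleus. Per the labels and the study's methods, the authors aligned reads with Cell Ranger 6.1.1 (STAR) to mm10. Their limits for keeping nuclei, the counting of intronic reads and the use of strand are not given in the sources used here. Intronic reads would weigh long genes such as Grin2a and Grin2b more heavily, so TMM-scaled levels were not compared between genes, and the ratio of Grin2a to Grin2b counts compares classes and groups, not the abundance of the 2 transcripts. Groups were taken from the sample labels, with the mouse as the replicate.

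The subunits and all gene lists were chosen with earlier results of these data known. Nuclei were scaled to 10000 UMIs and clustered with scanpy 1.11.5 on 2000 variable genes, 30 components and 20 neighbors (Leiden resolution 1.5, first for families and then for classes). Subunit and pathway genes, mitochondrial genes and Gm42418 took no part in clustering. A cluster of at least 50 nuclei was named where at least 3 markers of a class were raised at least 1.5-fold, unless its 10 leading genes held more markers of another class, or none of its own while under 50% of that class's markers were raised or UMIs were few. The authors' cell names were not used here, so classes may differ from theirs. No doublet caller was run.

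Counts were summed per mouse and class (at least 10 nuclei per mouse, 3 mice per group) and group differences were fitted in R 4.3.3 by edgeR 4.0.16 (TMM, filterByExpr, robust quasi-likelihood, Benjamini-Hochberg), with 1 mean per group. Class comparisons used 1 fit with the mouse as a block. The scripts were tested on simulated data. Levels are TMM-scaled CPM within a class. Members and classes past the threshold are named, or in a contrast with none up to 5 by p among those with an unadjusted p under 0.05. Up to 10 pathway genes per contrast, 1 class each, and the 3 genes most alike to each subunit are named as well. The values of 1 pathway gene that was called are not reported here. Alternatives were edgeR RLE scaling, DESeq2 1.42.0, no filter on low counts, nuclei with at least 500 genes and at most 5% mitochondrial UMIs, nuclei without the 5% with the most UMIs, Leiden resolution 1.0, Gm42418 as a covariate, leaving out the 3 mice highest in Gm42418, and leaving out each mouse in turn. In the class comparisons the last of these kept the dispersion trend of all mice, and 9 of the 19 comparisons were recomputed. Each of these 9 already had a subunit called under the reported settings.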

Additional observations from a re-analysis of the deposited data

Results flagged for a closer look

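In 88 sets of 4 mice (the subunit levels given by group, in the classes and families the text turns on), 3 had 1 mouse further from the rest than Dixon's 95% critical value for 4 samples allows, where chance alone gives about 1 in 20. Grin2b in GABAergic nuclei was 1142 CPM in alcohol-exposed 3xTg-AD mouse 34 and 973 to 990 CPM in the other 3 mice of its group. Grin2c in astrocytes was 234 CPM in alcohol-exposed 3xTg-AD mouse 33 and 316 to 329 CPM in the others. Grin2d in glutamatergic nuclei was 0.932 CPM in 3xTg-AD control mouse 14 and 1.45 to 1.56 CPM in the others.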

How the results depend on the processing

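With all mice or without the 3 highest in Gm42418, 139 of 168 counts of calls and family ratios stayed close to their value under another setting (counts within 1.5 times, ratios within 1 SD). Of 439 values of single genes and Grin2a to Grin2b ratios of single classes, 416 stayed alike. Gene values counted as alike if they kept their direction and side of the threshold, and ratios if they stayed within 1 SD. The cause was not tested for those that did not stay alike. Counts of 0 that stayed 0 and uncalled values that stayed uncalled are included, so these shares do not measure how firm the calls are. For alcohol-exposed 3xTg-AD mice against WT controls, the 1 call among the subunits became 0 under RLE scaling, no filter, the stricter limits on nuclei, without the 5% of nuclei with the most UMIs, at Leiden resolution 1.0, with Gm42418 as a covariate and without the 3 mice highest in it, and 4 in DESeq2. Against alcohol-exposed WT mice the 1 call became 2 with no filter, in DESeq2 and without the 3 mice. For alcohol-exposed 3xTg-AD mice against 3xTg-AD controls, the covariate gave 1 where there had been 0. Calls of pathway genes moved from 5 to 8 in DESeq2, to 8 without the 3 mice and to 17 with the covariate for alcohol-exposed 3xTg-AD mice against WT controls, from 7 to 15 without the 3 mice and to 18 with the covariate against alcohol-exposed WT mice, and from 0 to 2 and 18 in the same settings against 3xTg-AD controls. The calls over all gene tests moved as well, from 2984 to 3952, 2880 and 4435 in these 3 settings in the first of these contrasts, and without the 3 mice and with the covariate from 843 to 1749 and 1746 in the second and from 397 to 2409 and 4630 in the third. For 3xTg-AD controls against WT controls there was 1 pathway call with no filter and in DESeq2, and for alcohol-exposed WT mice against WT controls 2 in DESeq2, where there had been 0, while calls over all gene tests moved from 418 to 653 and 674 in the first and from 64 (of 164876 tests) to 393 (of 81077) in the second. Grin2a in L2/3 IT of 3xTg-AD controls against WT controls reversed to 0.10 without the 3 mice (adjusted p = 0.96). Grin3a was the 1 subunit called in L5/6 NP, and the count was 0 in each of the 6 other settings. In Sncg nuclei Grin3a was also called at Leiden resolution 1.0 (2 calls in place of 1).

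Leaving out each mouse in turn gave 0 to 4 subunit calls for alcohol-exposed 3xTg-AD mice against WT controls, with 4 without WT control 36 and 0 without WT controls 26 or 27, alcohol-exposed WT mice 6, 7 or 18, 3xTg-AD controls 13 or 21 or alcohol-exposed 3xTg-AD mice 33 or 34. It gave 0 to 2 against alcohol-exposed WT mice, with 0 without alcohol-exposed 3xTg-AD mouse 31 and 2 without alcohol-exposed WT mouse 17 or WT control 28. Pathway calls ranged from 2 to 9 in the first contrast (2 without alcohol-exposed 3xTg-AD mouse 4 or 33, 3 without 31, 9 without WT control 36) and from 1 to 9 in the second (1 without alcohol-exposed 3xTg-AD mouse 31, 2 without 33 or alcohol-exposed WT mouse 18, 3 without alcohol-exposed WT mouse 6). Calls over all gene tests ranged from 1434 (without alcohol-exposed 3xTg-AD mouse 33) to 3786 (without 3xTg-AD control 12) in the first and from 427 (without alcohol-exposed 3xTg-AD mouse 31) to 1036 (without WT control 26) in the second. They ranged from 49 (without 3xTg-AD control 13; 62, 63, 72 and 88 without mice 21, 33, 34 and 31) to 1239 (without 3xTg-AD control 12) for alcohol-exposed 3xTg-AD mice against 3xTg-AD controls. The ranges were 253 (without 3xTg-AD control 13) to 602 (without WT control 28) for 3xTg-AD controls against WT controls, 30 (without alcohol-exposed WT mouse 7) to 149 (without WT control 36) for alcohol-exposed WT mice against WT controls, and 0 to 13 for the interaction, the highest without alcohol-exposed WT mouse 18. Pathway calls ranged from 0 to 1 for 3xTg-AD controls against WT controls (1 without WT control 28). Subunit calls ranged from 0 to 1 in L5/6 NP, with 0 on leaving out any of 10 mice, and from 1 to 2 in Lamp5, where Grin2c was added without alcohol-exposed WT mouse 18 or alcohol-exposed 3xTg-AD mouse 31.

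Depth limited the rarer subunits, with Grin2d tested in 5 and Grin2c in 4 of 21 fits. The Grin2a to Grin2b ratio without the 3 mice highest in Gm42418 was an alternative chosen after seeing the data. No paired analysis was possible because the mouse numbers of the groups are all different.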

Other observations

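Long-range GABAergic cells of the Sst Chodl class numbered 110 nuclei over the 16 mice, too few for a test, and their summed counts are given with 95% Poisson intervals that cover counting error only. Grin3a was at 238 CPM (181 to 307), Grin2a at 903 CPM (789 to 1030) and Grin2b at 762 CPM (657 to 879). These nuclei held 224 UMIs of Grin2a and 189 of Grin2b, a ratio above 1 as in Lamp5.

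Nuclei with the markers of the Meis2 class numbered 1318, of which 1110 came from WT control mouse 27. They held Grin2b at 1286 CPM (1229 to 1344), Grin2a at 425 CPM (393 to 459), Grin1 at 395 CPM (364 to 428), Grin2d at 5.22 CPM (2.25 to 10.3) and Grin3a at 13.7 CPM (8.49 to 20.96). The 7th subunit gene, Grin3b, had 10 UMIs in all 114512 nuclei.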
